A study of Mus musculus with 32 samples.

Results

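Sciatic nerves of C3-PMP22 mice were compared with those of wild-type (WT) mice across all genes of the deposited table, and every library labelled with either genotype was used. That made 15 of the 32 libraries of the series: 8 C3-PMP22 libraries (4 labelled female, 4 male) and 7 WT libraries (4 female, 3 male), all from mice aged 6 months. The C3-PMP22 line has human PMP22 as a transgene beside the mouse's own Pmp22, and serves to model the inherited neuropathy Charcot-Marie-Tooth 1A. The sources used here do not give the transgene's copy number, its promoter or the strain background. The other groups of the series were C3-PMP22 Sipa1l2-/- (the double mutant, n = 8, 5 female and 3 male) and Sipa1l2-/- (n = 9, 4 female and 5 male), also at 6 months. They served to measure the transgene's effect again, in libraries that share none with the first comparison but that are all labelled Sipa1l2-/-.

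PMP22 is a membrane protein of compact myelin, made by the Schwann cells that wrap peripheral axons, and extra copies of its gene cause a demyelinating neuropathy in humans. Myelin is rich in cholesterol, which Schwann cells largely synthesise themselves through the mevalonate pathway under control of the transcription factor SREBP2. Schwann cells that lose contact with healthy axons or fail to keep their myelin can express genes of an immature or repair state, and resident macrophages of the nerve take up myelin debris.

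The libraries held between 11363694 and 16990990 expected counts in these 15 samples. The compact myelin transcripts that define Schwann cells were abundant throughout: Mbp, which encodes myelin basic protein, was at 3221 to 8331 CPM (counts scaled to one common library size) in C3-PMP22 and at 4896 to 8937 CPM in WT libraries. The amount of skeletal muscle RNA varied widely. The 19 measured members of a muscle list summed to between 82.0 and 202075 CPM in C3-PMP22 (median 46580) and between 149 and 79836 CPM in WT (median 4618), and the first principal component of all 32 libraries (41.0% of the variance) correlated with the muscle score at -0.96. The 14 measured adipocyte genes summed to 5357 to 18130.1 CPM in C3-PMP22 and to 7723 to 20293 CPM in WT. C3-PMP22 7 and 8 are labelled female, yet Xist was at 0.109 and 0.366 CPM and the Y-linked Ddx3y at 147 and 146 CPM there, and these libraries also had the largest muscle sums (202075 and 182954 CPM). The column names of the table number the animals in a plain series and in a series marked G, with 4 and 4 libraries of C3-PMP22 and 3 and 4 of WT. Some columns share the first part of that number, namely C3-PMP22 3 and 4 with WT 2 and 3, C3-PMP22 6 with WT 4, C3-PMP22 7 with C3-PMP22 8, and WT 5 with WT 6. What that part stands for is not stated, and its bearing on the results was not tested.

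Pmp22 itself was not higher in C3-PMP22 nerves. Its level was 1573 CPM at the lowest, 2974 at the median and 3749 at the highest in C3-PMP22, against 2184, 3021 and 5154 CPM in WT, so the groups overlapped. The log2 fold change was -0.25 ± 0.29 (SE, edgeR adjusted p = 0.667). The counts were made against the mouse genome, so they give no separate level for the human transgene. Sipa1l2, the SIPA1-family gene named in the other genotypes, was at 57.7 to 133 CPM in C3-PMP22 and at 65.2 to 122 CPM in WT (0.10 ± 0.24, adjusted p = 0.840). It was at 43.6 to 149 CPM (mean 86.0) in libraries labelled C3-PMP22 Sipa1l2-/- and at 55.0 to 138 CPM (mean 88.9) in those labelled Sipa1l2-/-, against a mean of 82.9 CPM in WT. The gene-level counts thus do not show the loss that these labels give, and they do not tell one part of the transcript from another. Both groups are called by their labels throughout.

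At an adjusted p under 0.05, 106 genes separated C3-PMP22 from WT nerves, which is 0.688% of the 15403 genes tested. In C3-PMP22 nerves 58 were higher (0.377%) and 48 were lower (0.312%). The split was 57 and 81 with DESeq2's size factors, 30 and 78 with scaling to total counts alone, and 164 and 211 with the DESeq2 test. Total-count scaling moved the median of all genes to -0.12 and kept 76 of the 106 calls. The median log2 fold change of all tested genes was 0.04, and the typical 95% confidence interval reached 0.32 to either side on that scale. Without an adjustment for the number of genes, 2789 of the 15403 had a p under 0.05. Unadjusted counts of gene lists below are to be read against that share. Of the 106 genes, 50 changed at least 2-fold, 33 of them upwards. In 43 the groups did not overlap in any library, against 60 such genes (0.39%) over the whole table. Within the plain series alone 2 genes passed and within the G series 68 did, with the direction kept for 105 and 106 of the 106 genes. Both fits reuse libraries that gave the 106 calls, so the kept direction is no separate check. With sex taken from sex-linked transcripts instead of the labels, 93 genes passed (51 higher, 42 lower), among them 81 of the 106. Leaving out C3-PMP22 7 and 8 gave 59 genes (38 higher, 21 lower), among them 52 of the 106, and a term for the muscle score kept 100 of the 106. Other single libraries raised the count when left out, to 409 (WT 3), 231 (C3-PMP22 5) and 183 (C3-PMP22 2).

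**Figure D1:**
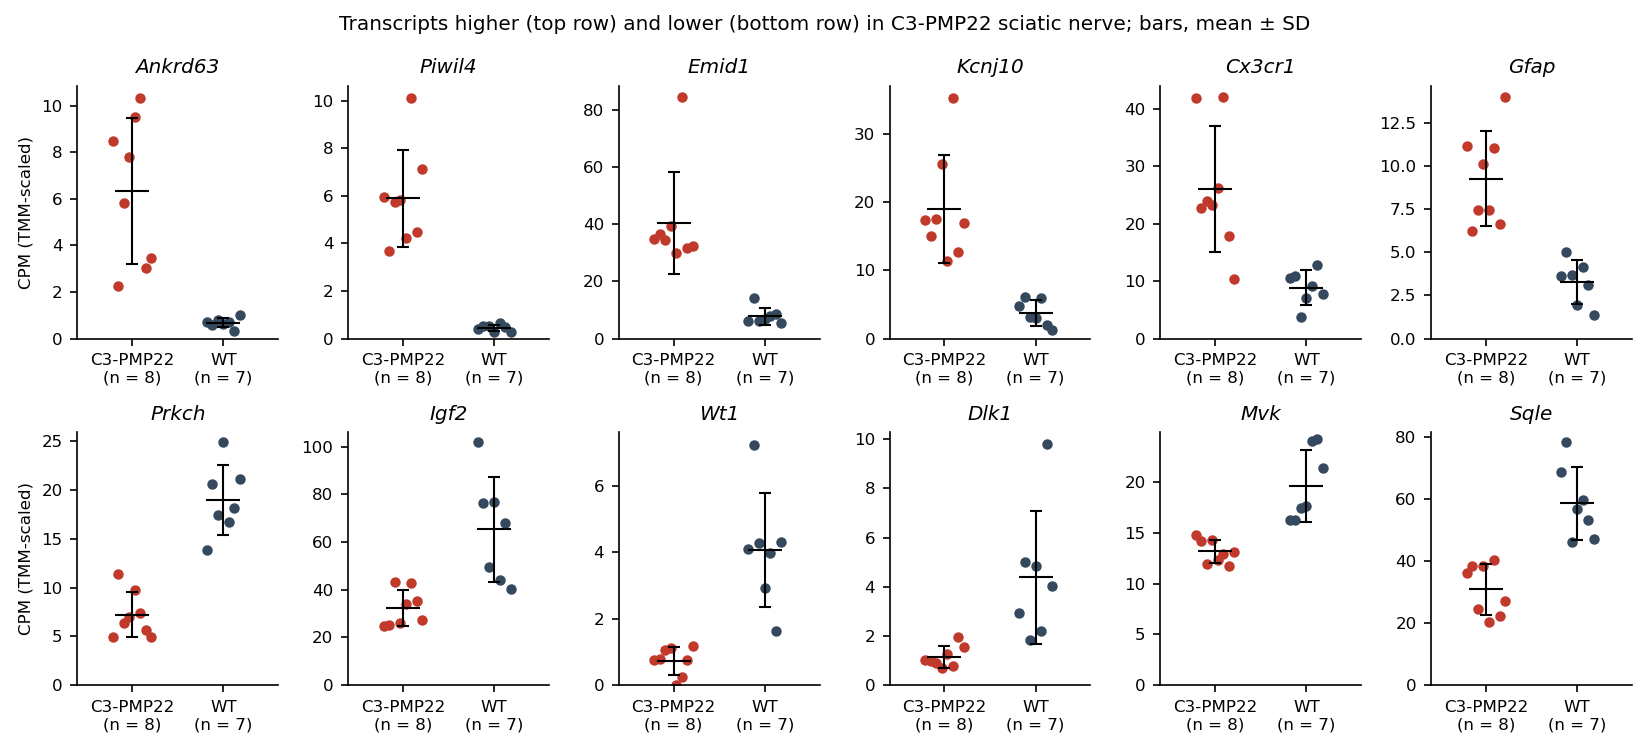
Levels in CPM (TMM-scaled, linear axes from 0) of 12 genes in each C3-PMP22 (n = 8) and WT (n = 7) library, one point per library with mean ± SD. The top row holds genes that were higher in C3-PMP22, with Ankrd63 between 2.27 and 10.4 CPM against at most 1.02 CPM in WT, and the bottom row genes that were lower, with Prkch at no more than 11.4 CPM against at least 13.8 CPM in WT.

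The largest increases above a mean of 1 CPM, apart from the sex-linked Ddx3y, were in genes that WT nerves barely expressed. Piwil4 (ENSMUSG00000036912, chr9:14696230-14740733, GRCm38), an Argonaute-family protein that binds Piwi-interacting RNAs in the germ line, had 3.67, 5.78 and 10.1 CPM as lowest, median and highest value in C3-PMP22, against 0.280, 0.474 and 0.651 CPM in WT. Every C3-PMP22 library lay above every WT library, and the log2 fold change was 3.73 ± 0.49 (adjusted p = 7.24e-05). Tex15, another germ-line gene of the piRNA pathway, rose as well (1.55 ± 0.29, adjusted p = 0.0048), with 3.38 to 5.57 CPM in C3-PMP22 and 0.979 to 2.22 CPM in WT. These were 2 of the 8 measured members of the piRNA and Argonaute list, and the remaining 9 of its 17 members were too low to be tested. Ankrd63 (chr2:118699103-118703963), an ankyrin repeat protein, had 2.27, 6.81 and 10.4 CPM in C3-PMP22 against 0.339, 0.716 and 1.02 CPM in WT (3.18 ± 0.39, adjusted p = 3.92e-05), again without overlap. Btbd16, a gene of the BTB-domain family, was at 1.52 to 2.94 CPM in C3-PMP22 and at 0 to 0.725 CPM in WT (2.98 ± 0.49, adjusted p = 0.00114).

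Kcnj10, Emid1 and Epyc were also among the leading increases. Kcnj10 (chr1:172341210-172374085) encodes the inward rectifier potassium channel Kir4.1 of glial cells. It had 11.4, 17.2 and 35.4 CPM in C3-PMP22 against 1.31, 3.16 and 6.09 CPM in WT, with no overlap (2.32 ± 0.37, adjusted p = 0.000989). It was the 1 called gene among 17 measured glial ion channels and transporters. Emid1 (chr11:5106265-5152257), an extracellular matrix protein with an EMI domain, had 29.7, 34.7 and 84.3 CPM in C3-PMP22 against 5.40, 6.79 and 14.1 CPM in WT (2.34 ± 0.37, adjusted p = 0.000826). Epyc, which encodes the small leucine-rich proteoglycan epiphycan, was at 12.5 to 47.3 CPM in C3-PMP22 and at 4.30 to 10.5 CPM in WT (1.75 ± 0.29, adjusted p = 0.00114). Emid1 and Epyc were the called members of 22 measured proteoglycan and elastic fibre genes, whose median log2 fold change was -0.12. In the annotation 40.6% of the exonic bases of Epyc overlap a gene on the opposite strand, so its counts are less certain.

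The other genes among the 15 increases with the smallest p had varied roles. S100a4, a calcium-binding protein, was the most abundant of them, with 99.5, 134 and 192 CPM in C3-PMP22 against 43.7, 60.8 and 88.1 CPM in WT (1.16 ± 0.19, adjusted p = 0.00107), and every C3-PMP22 library was above every WT library. In the annotation 51.7% of its exonic bases are shared with a readthrough or overlapping gene model on the same strand. Rab15, a small GTPase of endosomes, changed by 1.50 ± 0.21 (adjusted p = 0.000178), Galnt6, an enzyme that starts mucin-type O-glycosylation, by 1.67 ± 0.26 (adjusted p = 0.000546) and Ppp2r2c, a regulatory subunit of protein phosphatase 2A, by 2.34 ± 0.39 (adjusted p = 0.00125). Klk8, a secreted serine protease, rose by 1.44 ± 0.25 (adjusted p = 0.0015). Smaller increases were found for Csrp2, a LIM-domain protein (0.81 ± 0.13), for Dusp16, a phosphatase of MAP kinases (0.47 ± 0.08), and for Bach1, a haem-regulated transcriptional repressor (0.49 ± 0.09), with adjusted p between 0.00112 and 0.00203. With scaling to total counts Dusp16 and Bach1 did not pass (adjusted p = 0.130 and 0.0830).

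The decreases were led by a protein kinase and by genes of growth and developmental regulators. Prkch (chr12:73584796-73778185), which encodes protein kinase C eta, had 4.94, 6.72 and 11.4 CPM as lowest, median and highest value in C3-PMP22, against 13.8, 18.1 and 24.9 CPM in WT. The groups did not overlap, and its change of -1.41 ± 0.17 had the smallest p of all genes (adjusted p = 3.92e-05). Igf2 (chr7:142650766-142666816), an imprinted growth factor gene, had 24.7, 30.7 and 43.4 CPM in C3-PMP22 against 40.3, 68.2 and 102 CPM in WT. The highest C3-PMP22 libraries overlapped the lowest WT libraries (-0.92 ± 0.12, adjusted p = 7.24e-05). In the annotation 62.8% of the exonic bases of Igf2 are shared with another gene model on the same strand. Dlk1 (chr12:109452823-109463336), an imprinted inhibitor of adipocyte differentiation, had 0.686, 0.999 and 1.96 CPM in C3-PMP22 against 1.84, 4.02 and 9.82 CPM in WT (-1.80 ± 0.34, adjusted p = 0.00596). Igf2 and Dlk1 were the 2 called among 18 measured imprinted growth and IGF genes. Of these 18, 16 had a negative log2 fold change, and the median was -0.31 against 0.04 over all tested genes. The median was -0.18 with a term for the adipocyte score, whose genes had a median of -0.59, and -0.19 with sex taken from sex-linked transcripts. It was -0.13 in labelled males alone, where none passed, and -0.43 in labelled females alone, where 5 did. With the adipocyte term 3 of the 18 passed and with the DESeq2 test 4, all lower.

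Wt1 (chr2:105126529-105173616), a zinc-finger transcription factor, was the 1 called gene of 15 measured perineurial genes. It had 0, 0.775 and 1.19 CPM in C3-PMP22 against 1.63, 4.11 and 7.25 CPM in WT (-2.46 ± 0.40, adjusted p = 0.00109). The list's median was -0.02, with 7 positive and 8 negative members. Tchh, which encodes trichohyalin of the hair follicle sheath, had 0.464, 1.31 and 2.16 CPM in C3-PMP22 against 3.59, 5.52 and 10.7 CPM in WT (-2.33 ± 0.32, adjusted p = 8.74e-05). Both genes were without overlap between the groups, as was Tmem28 (-2.14 ± 0.28, adjusted p = 6.81e-05). Rspo1, a secreted activator of Wnt signalling, fell by 0.77 on the log2 scale (SE 0.14, adjusted p = 0.00356), and Lctl, a lactase-like protein, fell by 1.50 (SE 0.26, adjusted p = 0.00208). Aass, an enzyme of lysine breakdown, had a log2 fold change of -1.14 ± 0.21, the TNF receptor adaptor Traf1 of -0.84 ± 0.17, the mitochondrial ribosomal protein gene Mrps6 of -0.72 ± 0.14 and the MAGE-family gene Maged1 of -0.49 ± 0.10, with adjusted p between 0.00486 and 0.00946. Without C3-PMP22 7 and 8, Traf1 (adjusted p = 0.0609), Mrps6 (adjusted p = 0.0740) and Maged1 (adjusted p = 0.0637) did not pass, and Maged1 did not with scaling to total counts either (adjusted p = 0.0526). Cyp2j13, one of a cluster of similar cytochrome P450 genes among which reads can be divided, was at 0.0875 to 1.11 CPM in C3-PMP22 and at 1.39 to 3.78 CPM in WT (-2.65 ± 0.54, adjusted p = 0.00959).

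Transcripts of 6 enzymes of cholesterol synthesis fell in C3-PMP22 nerves. The list held 23 measured enzymes, none rose, 22 had a negative log2 fold change, and the median was -0.58 against 0.04 over all tested genes. The summed level of the list was 880 to 1513 CPM in C3-PMP22 (median 1182) and 1551 to 2030.3 CPM in WT (median 1826), without overlap. Without an adjustment for the number of genes, 20 of the 23 were lower at p under 0.05, against 2789 of all 15403 genes in either direction. Adipocyte genes had negative fold changes in the same comparison: 12 of 14 measured were negative, none passed, and their median was -0.59. With a term for the adipocyte score 12 of the 23 enzymes passed, all lower.

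Of the called enzymes 5 are given here, in the order of the pathway. Mvk (chr5:114444269-114460591), mevalonate kinase, had 11.8, 13.0 and 14.9 CPM in C3-PMP22 against 16.2, 17.6 and 24.3 CPM in WT (-0.58 ± 0.11, adjusted p = 0.00755). Pmvk, which carries out the next phosphorylation, was at 16.97 to 28.7 CPM in C3-PMP22 and at 23.6 to 42.1 CPM in WT (-0.60 ± 0.15, adjusted p = 0.0471). Sqle (chr15:59315077-59331192), squalene epoxidase, had 20.4, 31.6 and 40.5 CPM in C3-PMP22 against 46.1, 56.8 and 78.6 CPM in WT (-0.95 ± 0.19, adjusted p = 0.00959), so that all C3-PMP22 libraries lay below all WT libraries. Lss, which closes the sterol ring, had a log2 change of -0.65 ± 0.16 (adjusted p = 0.0414), and Cyp51, which demethylates lanosterol, of -0.70 ± 0.16 (adjusted p = 0.0320). Among those that did not pass were Hmgcs1 (-0.72 ± 0.19, adjusted p = 0.0576), Idi1 (-0.62 ± 0.16, adjusted p = 0.0546) and Fdps (-0.61 ± 0.15, adjusted p = 0.0503). Without C3-PMP22 7 and 8, the libraries whose sex label did not match, 2 of the 23 passed and the list's median was -0.58. Mvk passed there (adjusted p = 0.0384), and Sqle did not (adjusted p = 0.0609). The median was -0.49 within the plain series and -0.72 within the G series, and -0.57 with a term for the muscle score or for the adipocyte score. The number of enzymes that passed was 0 in the plain series, 1 in the G series, 0 in labelled males and 4 in labelled females. With the DESeq2 test 14 passed and with scaling to total counts 12, all lower. When 1 library was left out, 2 enzymes were called without WT 5, 3 without C3-PMP22 7, C3-PMP22 8, WT 2 or WT 6, 10 without C3-PMP22 2 and 11 without WT 3.

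**Figure D2:**
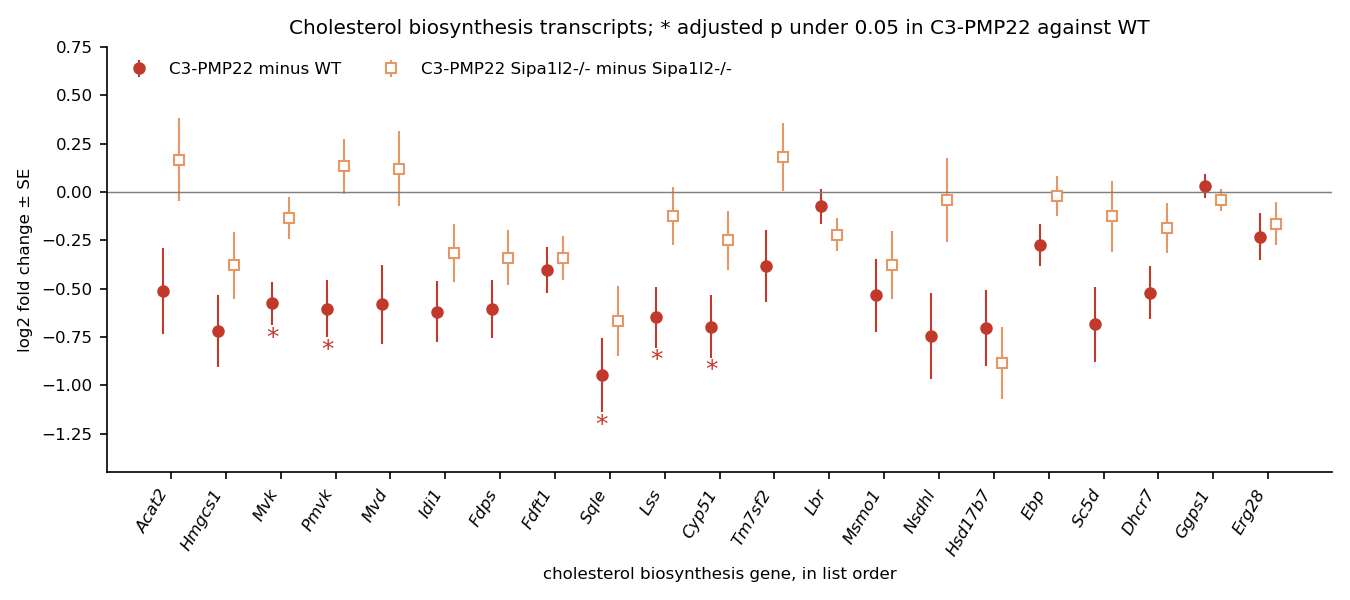
Log2 fold change ± SE of 21 cholesterol biosynthesis genes in C3-PMP22 minus WT (filled circles) and in the double mutant minus Sipa1l2-/- (open squares), in list order from the first enzymes on the left. In C3-PMP22 minus WT, 20 of the 21 points lie below 0 and 5 passed the test (asterisks), while the squares of Mvk, Pmvk and Mvd lie at -0.13, 0.13 and 0.12.

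The upstream sequences of these genes are printed because SREBP2 acts through sites close to the start of such genes. The RefSeq table (GRCm38.p6) had 21 start sites for 18 of the 23 genes. Of the 21 windows of 250 bases before them, 16 (76.2%) held the letters CCAAT, the core of the site bound by NF-Y, on either strand, against 33.8% of all 32851 windows of the same length. The letters TCACNCCAC, one form of the sterol regulatory element, were in 1 of the 21 windows (4.76%), that of Hmgcs1, against 346 of the 32851 windows (1.05%). The sequences run 5′ to 3′ on the strand of the gene, with both sets of letters, on either strand, in capitals; bases that the annotation places in an exon were left out. The Mvk stretch is chr5:114444061-114444268, that of Lss chr10:76531355-76531587 and that of Hmgcs1 chr13:119690101-119690350, all on the plus strand.
Mvk: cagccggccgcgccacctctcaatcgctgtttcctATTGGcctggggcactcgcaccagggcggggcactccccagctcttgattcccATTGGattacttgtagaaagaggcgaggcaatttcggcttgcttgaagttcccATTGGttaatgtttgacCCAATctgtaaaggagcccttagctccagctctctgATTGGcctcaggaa
Lss: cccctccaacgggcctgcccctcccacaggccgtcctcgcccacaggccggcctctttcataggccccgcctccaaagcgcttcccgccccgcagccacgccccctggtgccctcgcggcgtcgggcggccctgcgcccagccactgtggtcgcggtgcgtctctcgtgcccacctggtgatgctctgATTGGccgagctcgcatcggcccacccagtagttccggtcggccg
Hmgcs1: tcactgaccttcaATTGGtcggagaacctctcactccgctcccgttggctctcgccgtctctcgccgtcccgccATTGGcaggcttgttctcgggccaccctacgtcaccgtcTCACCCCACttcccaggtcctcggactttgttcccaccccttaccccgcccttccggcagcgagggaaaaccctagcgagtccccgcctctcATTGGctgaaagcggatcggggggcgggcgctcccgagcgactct
The Mvk window held 5 copies of CCAAT, the Lss window 1 and the Hmgcs1 window 3. A match of letters is a description of the sequence and shows no binding. The bases just after the window were found in a GENCODE M21 transcript of the gene for Mvk, but not for Lss or Hmgcs1. The start sites of Lss and Hmgcs1 are therefore less certain.

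Genes that sense and import cholesterol were counted apart. Of 13 measured members of the SREBP2 and uptake list 2 fell, among them Stard4, a carrier of sterols in the cytosol, with 24.1, 31.9 and 39.1 CPM in C3-PMP22 against 39.5, 54.0 and 63.9 CPM in WT (-0.70 ± 0.15, adjusted p = 0.0144), though not without C3-PMP22 7 and 8 (adjusted p = 0.0856). The list's median was -0.06. Srebf2, which encodes SREBP2, had a log2 change of -0.37 ± 0.14 (adjusted p = 0.193) and Insig1, its sterol-dependent retention factor, of -0.92 ± 0.27 (adjusted p = 0.0915). Among 18 genes of efflux and lipid carriers Apod, a lipocalin that is abundant in nerve, was the 1 called. It had 3658, 5201 and 8334 CPM in C3-PMP22 against 2098, 2674 and 3590.3 CPM in WT (0.93 ± 0.18, adjusted p = 0.00718), with no overlap, and did not pass with scaling to total counts (adjusted p = 0.0813). None of 20 measured sphingolipid and galactolipid enzymes and none of 19 fatty acid genes passed, with 1 and 5 of them past an unadjusted p of 0.05.

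Gfap and Sox4, genes of an immature or repair state of Schwann cells, were higher in C3-PMP22. Of 23 measured repair genes 3 rose and none fell, and the list's median was 0.46, with 17 positive members. At an unadjusted p under 0.05, 12 were higher and 2 lower. Gfap (chr11:102887336-102900912), a filament protein of Schwann cells that do not myelinate, had 6.21, 8.78 and 14.0 CPM in C3-PMP22 against 1.39, 3.61 and 5.00 CPM in WT, without overlap (1.47 ± 0.30, adjusted p = 0.0107). Sox4, a transcription factor of immature Schwann cells, was at 20.5 to 39.3 CPM in C3-PMP22 and at 11.7 to 21.3 CPM in WT (0.66 ± 0.15, adjusted p = 0.0217). In the annotation 54.6% of the exonic bases of Sox4 overlap a gene on the other strand. Gfap did not pass without C3-PMP22 7 and 8 (adjusted p = 0.0609), and Sox4 did not without C3-PMP22 4 or 6 or WT 4 or 5, nor with scaling to total counts (adjusted p = 0.167).

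The transcription factor Jun, which drives the repair state, was at 59.1 to 93.5 CPM in C3-PMP22 and at 50.0 to 90.2 CPM in WT (0.18 ± 0.14, adjusted p = 0.472). Ngfr, the low-affinity neurotrophin receptor, was at 39.0 to 93.8 CPM in C3-PMP22 and at 30.3 to 66.3 CPM in WT (0.69 ± 0.25, adjusted p = 0.166). Neither passed the test. Gfap and Apod were the 2 called among 16 measured genes of non-myelinating Schwann cells, both higher, and the list's median was 0.28. Among 22 neurotrophic factors and receptors 1 gene was called, and Gdnf, a survival factor for motor axons, had a log2 change of 1.28 ± 0.43 (adjusted p = 0.144).

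Genes of the myelin sheath itself did not pass. None of 11 compact myelin genes was called, their median was 0.08, and 1 of them had an unadjusted p under 0.05. Mbp had a log2 change of -0.14 ± 0.29 (adjusted p = 0.819). None of 16 myelination transcription factors was called: Egr2, which drives myelination, was at 34.4 to 113 CPM in C3-PMP22 and at 34.9 to 111 CPM in WT (0.21 ± 0.35, adjusted p = 0.768), and Sox10, which specifies Schwann cells, at 70.1 to 232 CPM in C3-PMP22 and at 88.9 to 289 CPM in WT (-0.02 ± 0.33, adjusted p = 0.976). Without C3-PMP22 7 and 8 the fold changes of Egr2 and Sox10 had the other sign (-0.01 and 0.10). Pou3f1, a factor of promyelinating Schwann cells, had a log2 change of 1.41 ± 0.37 (adjusted p = 0.0602). Of 21 genes of non-compact myelin Mpp6, a membrane scaffold protein, rose (0.76 ± 0.17, adjusted p = 0.0217), with 45.3 to 103 CPM in C3-PMP22 and 33.7 to 46.6 CPM in WT. It did not pass without C3-PMP22 7 or 8 or WT 4, 5 or 6. In these bulk samples, fewer cells of a type and less RNA per cell cannot be told apart.

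**Figure D3:**
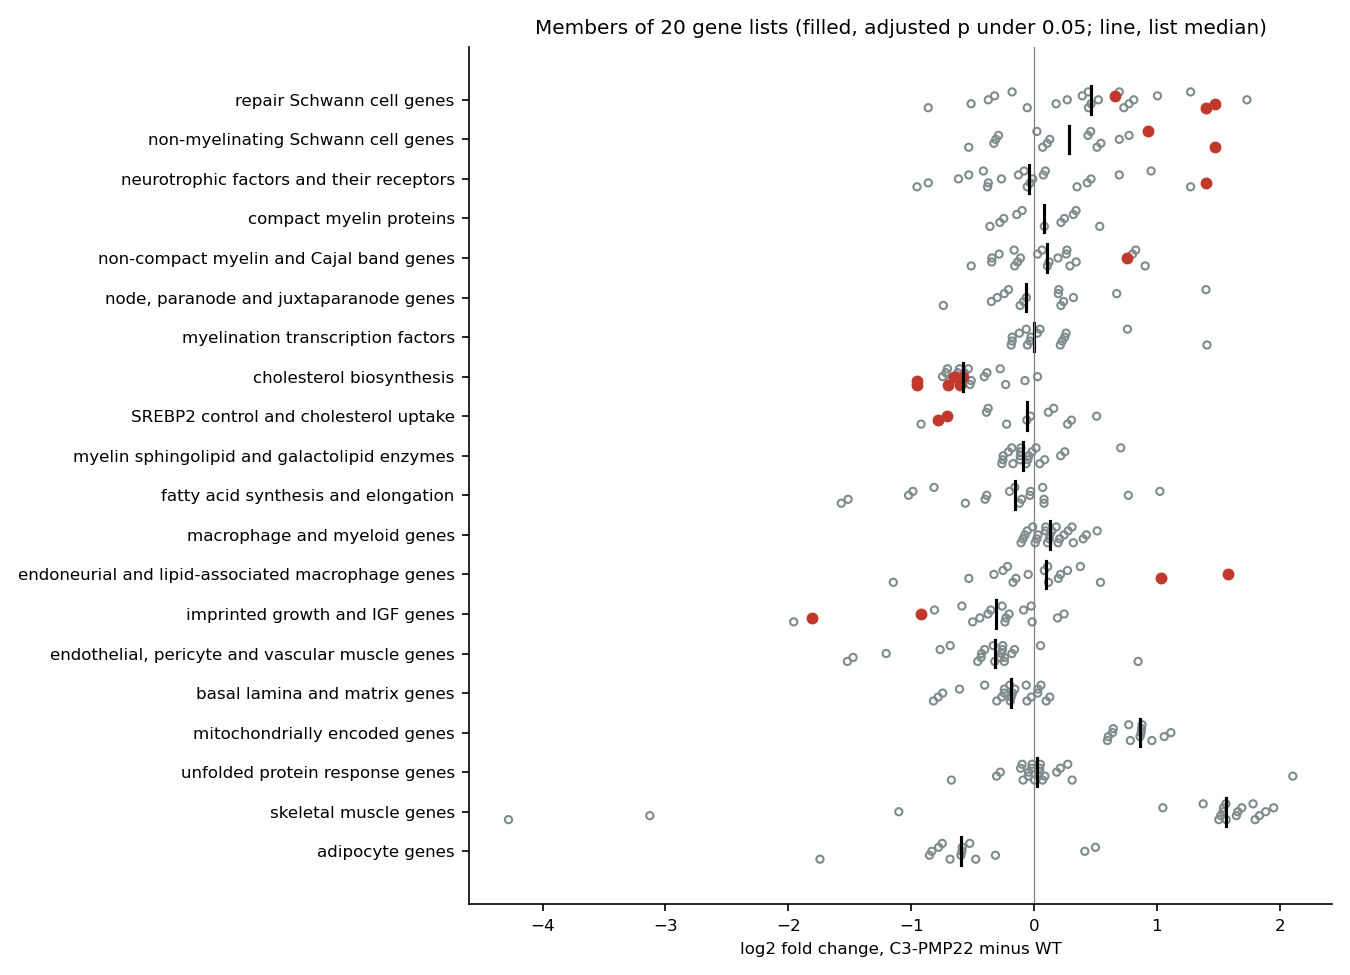
Log2 fold changes (C3-PMP22 minus WT) of the measured members of 20 gene lists, one point per gene; filled points passed an adjusted p under 0.05 and the black line is the list's median. Cholesterol biosynthesis has a median of -0.58 with 6 filled points, repair Schwann cell genes one of 0.46 with 3, and compact myelin proteins one of 0.08 with none; skeletal muscle and mitochondrially encoded genes have medians of 1.56 and 0.86 with no filled point.

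The receptor genes Cx3cr1 and Trem2 of resident macrophages were higher in C3-PMP22. Cx3cr1 (chr9:119901616-120069879), the fractalkine receptor of resident macrophages, had 10.3, 23.6 and 42.0 CPM in C3-PMP22 against 3.68, 9.18 and 12.8 CPM in WT, with 1 C3-PMP22 library inside the WT range (1.58 ± 0.26, adjusted p = 0.00107). Trem2, a receptor through which macrophages sense lipids, had 7.68, 13.1 and 20.6 CPM in C3-PMP22 against 3.95, 6.09 and 9.86 CPM in WT (1.04 ± 0.21, adjusted p = 0.00929), and did not pass with scaling to total counts (adjusted p = 0.0786). These were the called genes among 18 measured endoneurial and lipid-associated macrophage genes, whose median was 0.10 and, with scaling to total counts, -0.07. Of the 18, 10 were positive and 8 negative. The 18 genes summed to 4745 to 8369 CPM in C3-PMP22 (median 6085) and to 5668 to 10308 CPM in WT (median 7983). None of 24 general macrophage and myeloid genes passed; 19 were positive, the median was 0.13, and their sum was 1288 to 3081 CPM in C3-PMP22 and 1261 to 2189 CPM in WT. None of 18 chemokines and cytokines and none of 8 measured lymphocyte genes passed, with 4 and 2 of them past an unadjusted p of 0.05.

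The axonal, cell cycle and semaphorin lists each held 1 called gene. Sncg, gamma-synuclein, which sensory and motor axons carry, was the 1 called of 12 measured axonal genes, with 101 to 324 CPM in C3-PMP22 and 154 to 433 CPM in WT (-0.91 ± 0.21, adjusted p = 0.0309). Of the 12, 11 were negative and the median was -0.44. Ccnd1, cyclin D1, was the 1 called of 23 cell cycle genes (0.67 ± 0.15, adjusted p = 0.0267), and Sema4f, a membrane semaphorin, the 1 called of 31 semaphorins, plexins and neuropilins (1.76 ± 0.33, adjusted p = 0.00596). When each of the 15 libraries was left out in turn, Sncg passed in 6 fits and Ccnd1 in 8. Sncg did not pass without C3-PMP22 1, 3, 4, 7 or 8 or without WT 2, 4, 5 or 6, and Ccnd1 not without C3-PMP22 4, 6 or 7 or without WT 4, 5, 6 or 7. Nor did Sncg pass with a term for the adipocyte score, with no sex term, or without both C3-PMP22 7 and 8 (adjusted p = 0.149). Whether its decrease came from axons was not tested. Of 21 endothelial, pericyte and vascular muscle genes none passed, 19 were negative, 11 were lower at an unadjusted p under 0.05, and the median was -0.32. When 1 library was left out, 4 passed without C3-PMP22 5, 2 without WT 1 or WT 3 and 1 without C3-PMP22 2 or WT 7, all lower. The DESeq2 test called 5 and DESeq2's size factors 2, also lower, and the median was -0.05 in labelled males and -0.58 in labelled females. Their sum was 1496 to 2392 CPM in C3-PMP22 and 1804 to 3516 CPM in WT.

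Mitochondrially encoded and skeletal muscle transcripts had positive fold changes that did not pass. All 13 mitochondrially encoded genes were positive with an unadjusted p under 0.05, and the median was 0.86. It was 0.31 without C3-PMP22 7 and 8, the libraries with the largest muscle sums, and 0.58 with a term for the muscle score. Leaving out WT 3 gave 5 calls among the 13, C3-PMP22 5 gave 3, and C3-PMP22 6 gave 1. The DESeq2 test called 3 of the 13, labelled females alone gave 2 and the term for the muscle score 1, all higher. Of the 19 muscle genes 16 were positive with a median of 1.56 and none passed. That median was 0.62 without C3-PMP22 7 and 8, 3.56 without WT 3, 0.08 in the plain series, 2.69 in the G series, -0.01 in labelled males and 3.18 in labelled females. Acta1, the skeletal actin, ranged from 7.85 to 19444 CPM in C3-PMP22 and from 21.4 to 7169 CPM in WT. No gene of the unfolded protein response (22 measured), of cytosolic heat shock (14) or of autophagy and lysosomes (20) in these lists passed, with 3, 1 and 5 of them past an unadjusted p of 0.05; Atg14, called in the whole table, was not on the list. Ddx3y, a Y-linked gene, was called (6.42 ± 1.56, adjusted p = 0.0439) and had a log2 fold change of -0.05 without C3-PMP22 7 and 8.

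The transgene was measured a second time on the background labelled Sipa1l2-/-, in 8 libraries labelled double mutant and 9 labelled Sipa1l2-/-. There 111 genes (0.721% of those tested) passed, 57 higher and 54 lower in the double mutant. Of the 106 genes called in C3-PMP22 against WT, 100 had the same sign, against 56.6% of all tested genes, and 48 passed in the same direction, which is 45.3% of the first set and 43.2% of the second. The 2 comparisons share no library, though they share 1 estimate of the spread and of the sex term. The agreement went with rank: of the 35 calls with the smallest p, 35 had the same sign and 30 passed, and of the last 36, 30 had the same sign and 4 passed. The higher genes had a median log2 fold change of 1.09 in C3-PMP22 against WT and of 0.72 on the other background, and the lower genes of -0.88 and -0.59. The genes were chosen by their p in the first comparison, which makes their fold changes there larger. These medians therefore cannot tell whether the change was weaker on the other background.

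The genes that passed on both backgrounds included most of those with the largest changes. Piwil4 rose by 3.86 ± 0.46 (adjusted p = 1.72e-05) in the double mutant against Sipa1l2-/-, Ankrd63 by 3.62 ± 0.37 (adjusted p = 1.16e-06) and Kcnj10 by 2.12 ± 0.34 (adjusted p = 0.000562). Prkch had a log2 change of -1.02 ± 0.16 (adjusted p = 0.000508), Wt1 of -3.06 ± 0.41 (adjusted p = 9.34e-05), Igf2 of -0.73 ± 0.12 (adjusted p = 0.000535) and Dlk1 of -2.13 ± 0.33 (adjusted p = 0.000492). Gfap (1.55 ± 0.28, adjusted p = 0.00283), Sox4 (1.14 ± 0.14, adjusted p = 1.72e-05), Cx3cr1 (1.47 ± 0.24, adjusted p = 0.000562) and Trem2 (1.07 ± 0.20, adjusted p = 0.00283) rose there too. Several other genes given above kept their sign there but did not pass. They included Dusp16 (0.17 ± 0.07, adjusted p = 0.490), Bach1 (0.14 ± 0.08, adjusted p = 0.697) and Lctl (-0.82 ± 0.25, adjusted p = 0.151). Apod (0.58 ± 0.17, adjusted p = 0.115), Mrps6 (-0.17 ± 0.14, adjusted p = 0.872) and Maged1 (-0.15 ± 0.09, adjusted p = 0.741) did not pass either. Of the cholesterol enzymes Sqle had -0.67 ± 0.18 (adjusted p = 0.0824) and Mvk had -0.13 ± 0.11 (adjusted p = 0.873). Hsd17b7, a reductase of later sterols, fell there (-0.89 ± 0.19, adjusted p = 0.0135) and had -0.70 ± 0.20 (adjusted p = 0.075) in C3-PMP22 against WT. The list's median was -0.19 on that background, with 2 of 23 genes called.

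**Figure D4:**
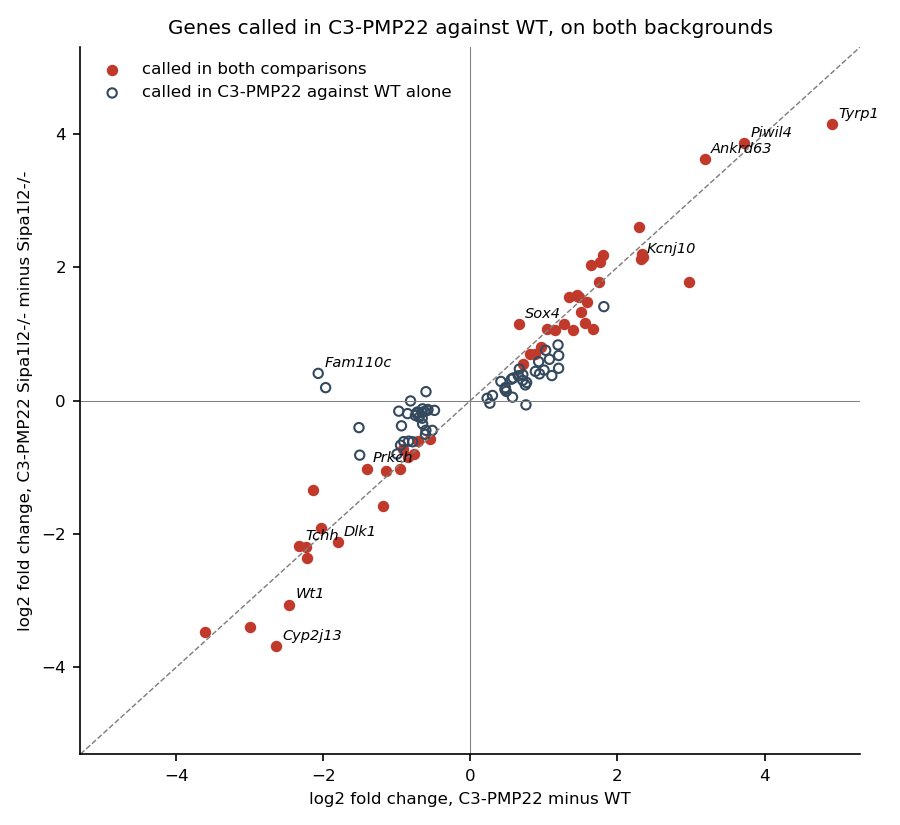
Log2 fold changes of the genes called in C3-PMP22 against WT (105 points, Ddx3y left out for its sex label), C3-PMP22 minus WT on the horizontal axis and double mutant minus Sipa1l2-/- on the vertical axis; filled points passed in both comparisons and the dashed line marks equal values. Piwil4 lies at 3.73 and 3.86 and Wt1 at -2.46 and -3.06, while Fam110c lies on the other side of 0 at -2.07 and 0.41.

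Of the 106 genes, 6 had the opposite sign on the other background, none of them past the adjusted test there. Fam110c had -2.07 ± 0.47 in C3-PMP22 minus WT and 0.41 ± 0.45 in the double mutant minus Sipa1l2-/-. Ces2e, a carboxylesterase, had -1.97 ± 0.46 and 0.19 ± 0.44 in the same order of comparisons, Pmvk had -0.60 ± 0.15 and 0.13 ± 0.14, and Mpp6 had 0.76 ± 0.17 and -0.07 ± 0.16. Atg14, an autophagy regulator, had 0.27 ± 0.07 and -0.04 ± 0.06, and Ddx3y was the sixth. The difference between the backgrounds was tested directly. No gene passed (smallest adjusted p = 0.700, 987 genes at an unadjusted p under 0.05), and 29 of the 106 genes were among those 987, Mvk with an unadjusted p of 0.00844. The tested difference includes C3-PMP22 minus WT, by which the 106 genes were chosen. The number 29 therefore cannot tell whether their changes differed between the backgrounds.

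The double mutant was also set directly against C3-PMP22, the group most like it. No gene passed in edgeR (smallest adjusted p = 0.601), 1243 had an unadjusted p under 0.05, 15 of the 106 among them, and the DESeq2 test called 11. The C3-PMP22 libraries also served to choose the 106 genes, so the number 15 cannot be read as a difference between these groups. The mean level of the called genes in each library was then compared over all 4 genotypes. Over the higher genes, without Ddx3y, the mean of the centred log2 CPM values was 0.03 to 0.89 in double mutant libraries and -0.70 to -0.32 in Sipa1l2-/- libraries. Over the lower genes it was -0.61 to -0.21 in double mutant libraries and 0.13 to 0.70 in Sipa1l2-/- libraries, so that neither score overlapped between these groups. Within the double mutant the 3 libraries of the G series, all labelled male, had 0.77 to 0.89 for the higher genes and the 5 of the plain series, all labelled female, 0.03 to 0.39. Sex and series cannot be told apart in that group.

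**Figure D5:**
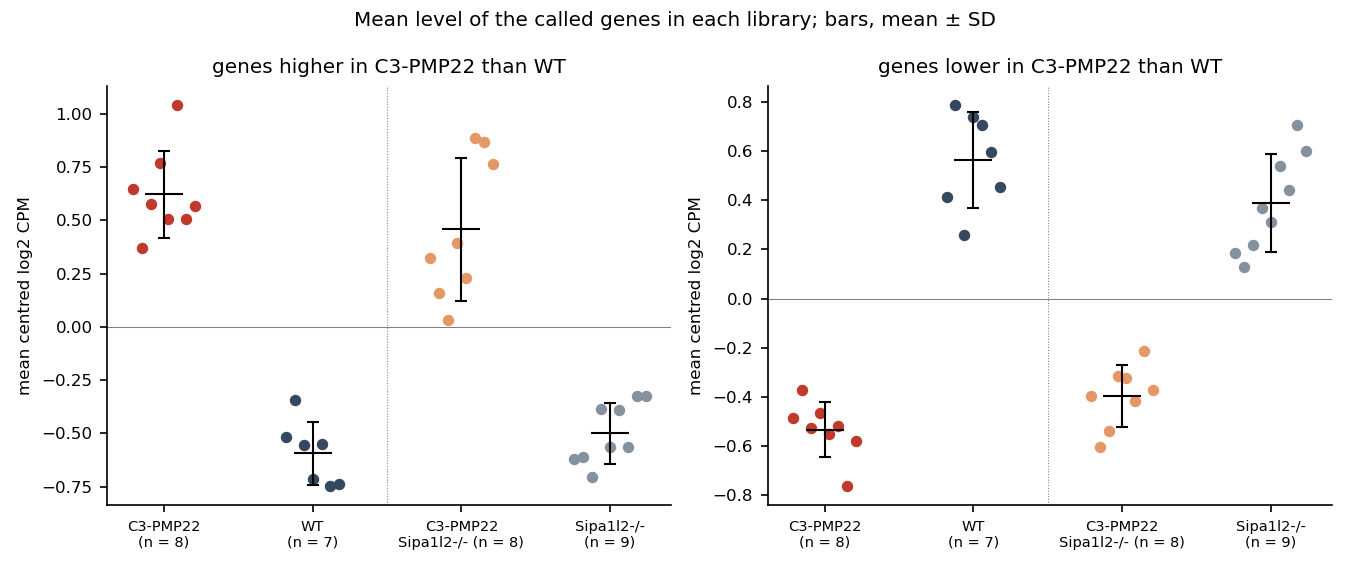
Mean over genes of log2 CPM, centred on the mean of all 32 libraries, for the 57 higher genes (left, Ddx3y left out) and the 48 lower genes (right) of C3-PMP22 against WT, one point per library with mean ± SD. The double mutant libraries (right side of each panel) lie between 0.03 and 0.89 for the higher genes, all above the Sipa1l2-/- libraries at -0.70 to -0.32; C3-PMP22 and WT differ by construction.

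At the threshold, the called genes with the largest adjusted p were Pmvk (0.0471), Flna, the actin cross-linker filamin A (-0.58 ± 0.14, adjusted p = 0.0485), and Atg14 (0.0494). When each library was left out in turn, Pmvk and Flna passed in 5 of the 15 fits and Atg14 in 4. The nearest genes outside it, each with an adjusted p of 0.0503, were 2900011O08Rik (-1.14 ± 0.28), Arhgef15, a guanine nucleotide exchange factor of endothelium (-0.58 ± 0.14), and Cndp1, a carnosine dipeptidase (-1.09 ± 0.27). Cndp1 and 2900011O08Rik passed on the other background (adjusted p = 0.0157 and 0.000657).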

How the data were processed

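Polyadenylated RNA of sciatic nerve was sequenced in 32 libraries. Per the submitters' processing notes, the authors used Trim Galore, FastQC and RSEM with the mouse build GRCm38 (mm10); no source used here names versions, an aligner or an annotation. What the authors deposited are whole-number expected counts for 45706 genes, unscaled between libraries. Columns were assigned by the column letter in each sample's description. No label says that samples came from separate litters or days, so p-values measure the spread between these samples.

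Genes were kept with edgeR's filterByExpr (minimum count 10, minimum total 15), which left 15403. Counts were TMM-scaled and fitted with edgeR's quasi-likelihood test, in which genotype and labelled sex were the terms and all 32 libraries entered. Genes were called where the Benjamini-Hochberg adjusted p, taken across the tested genes, was under 0.05. Levels are TMM-scaled CPM. Fold changes are log2 ± SE. R 4.3.3, edgeR 4.0.16, DESeq2 1.42.0 and limma 3.58.1 were used. Gene positions are those of GENCODE M21, and the test was checked on simulated data. It recovered 27 of 67 genes changed 1.5-fold, 53 of 67 changed 2-fold and 63 of 66 changed 4-fold. It also called 11 of the 15203 genes that were left unchanged. A gene that did not pass may therefore still have changed, and a gene that passed may be unchanged.

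The comparison and 41 gene lists were chosen with earlier results of these data known, so list counts are descriptions. Genes given with values are the 15 of each direction with the smallest p (mean of at least 1 CPM, no model name), up to 3 called members of each list, a panel of marker genes, and the 3 genes on either side of the threshold. Others were named after their values were seen. Some genes that meet this rule are left out of the text, though they are in the counts. Exonic overlaps matter because no source states that counting used strand. Alternatives were other scalings and filters, the DESeq2 test, other sample sets and terms, and single libraries left out.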

Additional observations from a re-analysis of the deposited data

Results flagged for a closer look

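Of the genes given with values, 54 were screened for a library standing far from the rest of its group, which made 108 groups of 7 or 8 libraries, and 7 were marked. Chance marks about 1 in 20 groups. On the log2 CPM scale Emid1 was at 6.40 and Ppp2r2c at 5.22 in C3-PMP22 6, above the other C3-PMP22 libraries. Csrp2 was at 4.50 in C3-PMP22 2, below the rest. Pmvk was at 4.85 in C3-PMP22 3, above the rest, and Cndp1 at 0.92 in C3-PMP22 7, below it. Among WT libraries Sncg was at 7.27 in WT 1, below the other 6, and Sema4f at 1.57 in WT 2, above them. C3-PMP22 7 is one of the libraries labelled female with male transcripts and held the largest muscle sum.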

How the results depend on the processing

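Of the 47 genes chosen by the rule and called in C3-PMP22 against WT, 46 had the same sign in every setting, the exception being Ddx3y (-0.050 without C3-PMP22 7 and 8, -0.12 in the plain series alone and -0.036 in labelled males alone). Every setting reuses libraries that gave the calls, so the shared sign is no separate check. The count of 106 calls moved: it was 375 with the DESeq2 test, 59 without C3-PMP22 7 and 8, 2 in the plain series alone, 68 in the G series alone, 1 in labelled males, 317 in labelled females and 171 with a term for the adipocyte score. In the double mutant against Sipa1l2-/- (111 calls) it was 219 with DESeq2, 68 with only the groups compared in the fit, 0 in the G series (3 and 2 libraries), 39 in males and 238 with the adipocyte term. In the double mutant against C3-PMP22 (0 calls) it was 11 with DESeq2, 1 in the plain series and 1569 in labelled females, where C3-PMP22 7 and 8 count as female. The 48 genes called on both backgrounds became 98 with DESeq2, 2 in the plain series, 0 in the G series, 1 in males, 13 in females and 102 with the adipocyte term. With 1 library left out, the count in C3-PMP22 against WT lay between 71 and 409, and in the double mutant against Sipa1l2-/- between 81 and 142. The subsets hold fewer samples; otherwise the cause was not tested. Scaling to total counts alone gave 108 calls, of which 27.8% were higher (54.7% as reported), and moved the median of all genes to -0.12. The sample numbers did not pair the libraries: correlations of the deviations of 7 same-numbered pairs were between -0.34 and 0.57, 3 were over 0.1 and in 1 of 7 the libraries correlated best with their own number. With the number as a replicate block 123 genes were called. Of the 47 genes, 38 passed in all 15 fits with 1 library left out and 32 without C3-PMP22 7 and 8. At this depth genes with a mean under 1 CPM, such as Tyrp1, rest on few counts.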

Other observations

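The genes given here were picked out after their values were seen. Several transcripts of contractile cells were among the lower calls in C3-PMP22 against WT: Mylk, the myosin light chain kinase (-0.97 ± 0.22, adjusted p = 0.0272), Myl9, a regulatory light chain (-0.65 ± 0.15, adjusted p = 0.0310), Itga8, an integrin subunit (-1.51 ± 0.34, adjusted p = 0.0241), and Mrvi1 (-0.75 ± 0.16, adjusted p = 0.0188). On the Sipa1l2-/- background none of these passed: Mylk had -0.16 ± 0.21, Myl9 -0.27 ± 0.14, Itga8 -0.41 ± 0.31 and Mrvi1 -0.22 ± 0.15. Acta2, the vascular smooth muscle actin, was at 68.1 to 284 CPM in C3-PMP22 and at 129.7 to 641 CPM in WT, and did not pass (-1.20 ± 0.31, adjusted p = 0.0546).

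Membrane receptors and channels were among the higher calls. Otop1, a proton channel, was at 9.92 to 38.4 CPM in C3-PMP22 and at 2.95 to 8.84 CPM in WT (1.64 ± 0.34, adjusted p = 0.0118), and had 2.04 ± 0.32 on the other background (adjusted p = 0.000492). Chrm1, a muscarinic acetylcholine receptor, was at 1.10 to 2.71 CPM in C3-PMP22 and at 0.175 to 0.745 CPM in WT (1.80 ± 0.39, adjusted p = 0.0162), with 2.18 ± 0.37 on the other background (adjusted p = 0.000888). Gria1, a subunit of AMPA receptors, rose by 1.81 ± 0.41 (adjusted p = 0.0241) and Panx1, a pannexin channel, by 0.88 ± 0.20 (adjusted p = 0.0201). Below a mean of 1 CPM, Tyrp1, an enzyme of melanin synthesis, was at 0.350 to 3.56 CPM in C3-PMP22 and at 0 to 0.145 CPM in WT, and passed on both backgrounds (adjusted p = 0.000493 and 0.000600).

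Slow-fibre muscle transcripts were high in 1 WT library: Tnnt1 was at 396 CPM in WT 1, against 0.343 to 4.09 CPM in C3-PMP22 and 0.609 to 7.69 CPM in the other WT libraries, and Tnni1 at 174 CPM in the same library.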
